A study of Mus musculus with 108 samples.

Results

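The data described here compare livers of mice 4 h after a single oral dose of clofibrate with livers of mice that received its vehicle, sesame oil, at the same hour. The comparison rests on 6 of the 108 arrays of the series, namely the 3 whose titles name clofibrate at 300 mg/kg and 4 h and the 3 whose titles name the vehicle of that arm and hour. All mice were ovariectomized C57BL/6 females, so every value below comes from animals without ovarian hormones. Each array carried the Cy3-labelled liver RNA of 1 biological replicate in a single colour. The neighbouring clofibrate groups at 2 and 8 h and the groups given Wy-14643 at 300 mg/kg or its own vehicle at 4 h, each of 3 arrays, serve as a comparison. Ages are not stated. RNA of whole liver was measured, so fewer cells of a type and less RNA per cell cannot be told apart.

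Clofibrate is a lipid-lowering drug of the fibrate class whose acid binds the nuclear receptor PPAR alpha. In hepatocytes this receptor pairs with RXR, sits on promoters and enhancers of genes for fatty acid uptake, transport and oxidation, and turns them on during fasting or when a fibrate is given. Fatty acids are activated to acyl-CoA, carried into mitochondria by the carnitine shuttle or into peroxisomes by ABC transporters, shortened by beta-oxidation, or first hydroxylated at their far end by Cyp4a enzymes. Acyl-CoA thioesterases release the free acid again, and lipid droplets store what is not burned.

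Values are log2 fluorescence after scaling of the arrays, and differences are clofibrate minus vehicle on the log2 scale (n = 3 arrays each). Differences are given ± the SE of the limma fit. For the clofibrate effects this SE rests on a spread per gene shared over all 54 arrays of the clofibrate arm. It therefore does not measure the scatter of the 6 arrays at 4 h alone. Calls were made at an adjusted p of limma under 0.05 (Benjamini-Hochberg over all genes tested), and "rose" and "fell" are used of called genes. The brightest probes end at a scanner limit near log2 16, so a fold is a lower bound where clofibrate arrays of a raised gene lie there, and 275 genes at the limit in both groups were not tested. The clofibrate arrays listed 19558 to 19582 probes each and the vehicle arrays 20779 to 20797. The number of arrays, with 3 per group, limits the precision. The labelled tissue was borne out by its markers, since 3 of the 5 hepatocyte markers on the arrays lay at the limit in both groups.

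One array stood apart. Clofibrate replicate 1 correlated with the other clofibrate arrays at 0.9491 and 0.9376 over all probes, while clofibrate replicates 2 and 3 correlated at 0.9754 and the vehicle arrays among themselves at 0.9695 to 0.9808. The median difference between clofibrate and vehicle arrays of the same number, in absolute log2 units, was 0.396 for number 1, 0.194 for number 2 and 0.174 for number 3. Arrays of the same number deviated together from their group means. The fit with replicate number as a block is therefore given beside the counts of genes and list members called at 4 h where it changes them. Counts without clofibrate replicate 1 and without number 1 in both groups stand beside the main count.

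Of 11077 genes tested at 4 h, 160 rose (1.44%) and 130 fell (1.17%), together 290 (2.62%). Past 2-fold were 104 of the raised and 45 of the lowered genes. In 279 of the 290 the clofibrate and vehicle arrays did not overlap, whereas over all tested genes this held for 1466 (13.2%), with 5.65% above and 7.58% below the vehicle arrays. The median difference over all tested genes was -0.04. With replicate number as a block 475 rose (4.29%) and 510 fell (4.6%), 985 in all (8.89%). Without clofibrate replicate 1 the count was 167, without vehicle replicate 1 it was 125, without vehicle replicate 2 it was 172, and without number 1 in both groups it was 71 (56 raised, 15 lowered). When the spread came from the 6 arrays at 4 h alone, the count was 52 (45 raised, 7 lowered). Raised genes were 55.2% of the calls, but 89.1% with values as deposited and 21.4% when arrays were scaled over all probes they list, where the median of all genes stood at 0.13 and -0.21.

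The gene with the highest difference was Pdk4, the pyruvate dehydrogenase kinase that keeps pyruvate out of the citric acid cycle when fat is burned. It read 15.49, 15.64 and 15.85 on the clofibrate arrays and 9.61, 9.39 and 9.46 on the vehicle arrays. The clofibrate arrays all lay at the scanner limit and the vehicle arrays near the median of all genes, so the difference of 6.17 ± 0.50 is at least 72.1-fold (limma, adjusted p = 9.93e-12). Txnip, which restrains glucose uptake and binds thioredoxin, read 14.54, 13.31 and 14.18 on clofibrate and 10.56, 11.09 and 11.25 on vehicle, an 8.23-fold rise (3.04 ± 0.28). Aqp3, a channel for water and glycerol, read 9.36, 10.07 and 9.15 on clofibrate against 6.94, 6.99 and 6.97 on vehicle, a 5.89-fold rise (2.56 ± 0.47). Its vehicle arrays lay near the dim end of the listed values, and at 2 and 8 h it was not listed in both groups. Slc16a1, the monocarboxylate carrier that moves ketone bodies and lactate, rose 2.14-fold (1.10 ± 0.29), a call lost without any 1 of clofibrate replicates 1 and 2 and vehicle replicates 1 and 3 (limma, adjusted p up to 0.145).

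**Figure D1:**
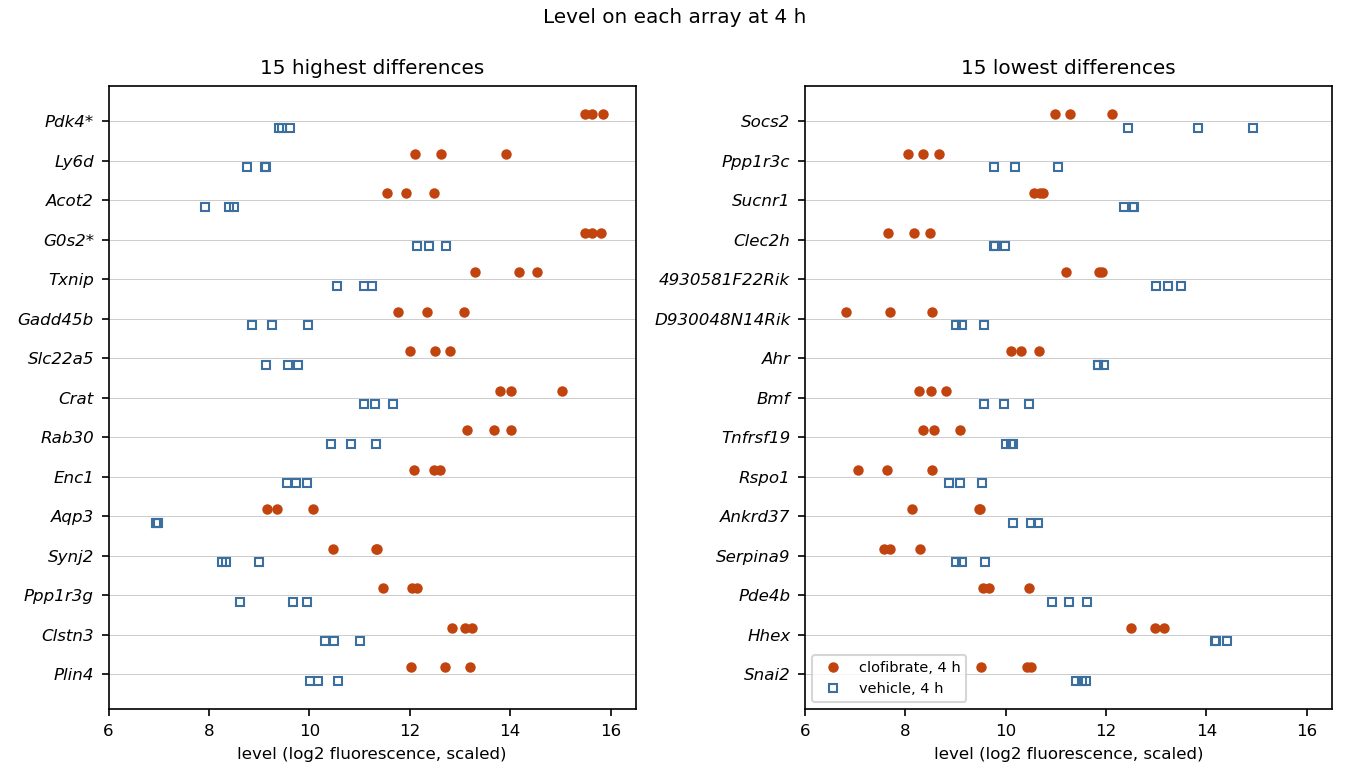
Level on each array (x axis, scaled log2 fluorescence) of the 15 called genes with the highest difference (left) and the 15 with the lowest (right) among those whose groups do not overlap. Filled circles are the 3 clofibrate arrays and open squares the 3 vehicle arrays at 4 h, and a star marks genes with clofibrate arrays at the scanner limit (Pdk4 and G0s2). Pdk4 is the farthest apart, at 15.49 to 15.85 on clofibrate and 9.39 to 9.61 on vehicle.

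The carnitine shuttle had the highest median difference of the 28 gene lists. Of 6 members tested, 4 rose and none fell, with a median difference of 1.72, beside 1.44% raised and a median of -0.04 over all genes. Slc22a5, the plasma membrane carnitine importer, read 12.80, 12.50 and 12.00 on the clofibrate arrays and 9.13, 9.78 and 9.57 on the vehicle arrays. Crat, which exchanges acetyl groups between carnitine and CoA, read 15.04, 14.02 and 13.80 on clofibrate and 11.09, 11.31 and 11.66 on vehicle. Neither pair of groups overlapped, and the rises were 7.67-fold (2.94 ± 0.24) for Slc22a5 and 7.64-fold (2.93 ± 0.32) for Crat. Cpt1b, the muscle form of the enzyme that makes long-chain acylcarnitine, rose 5.16-fold (2.37 ± 0.32), with 10.83, 11.20 and 10.70 on clofibrate and 8.32, 8.65 and 8.66 on vehicle. The liver form Cpt1a differed by 0.64 ± 0.22 and was called with the replicate block (limma, adjusted p = 0.12 without it). Slc25a20, the carrier of acylcarnitine across the inner membrane, rose 2.10-fold (1.07 ± 0.30). That call was lost without any 1 array other than vehicle replicate 3 (limma, adjusted p up to 0.284). Cpt2, which turns acylcarnitine back into acyl-CoA, lay at the scanner limit on the clofibrate arrays and on 1 vehicle array, so its difference of 0.29 ± 0.17 is compressed.

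The acyl-CoA thioesterases were split over the list of those outside peroxisomes and the peroxisomal list. Acot2, the mitochondrial member, read 11.54, 12.49 and 11.93 on the clofibrate arrays and 7.93, 8.49 and 8.40 on the vehicle arrays, a 13.1-fold rise (3.72 ± 0.28, limma, adjusted p = 4.64e-12). Its neighbour in function Acot1, the cytosolic member, lay at the limit on all clofibrate arrays (15.49, 15.64 and 15.87) with vehicle arrays at 12.81, 14.37 and 14.12. That is at least 3.73-fold, and the call was lost without any 1 of the clofibrate arrays or vehicle replicate 1 (limma, adjusted p up to 0.248). Acot4 of peroxisomes read 14.55, 14.23 and 13.25 on clofibrate and 11.45, 12.19 and 11.89 on vehicle, and rose 4.49-fold (2.17 ± 0.39). Acot3, also peroxisomal, rose 4.36-fold (2.12 ± 0.53), a call lost without any 1 of clofibrate replicates 1 and 2 and vehicle replicates 1 and 2 (limma, adjusted p up to 0.148). Acot8 of peroxisomes rose 2.03-fold (1.02 ± 0.18). Acot5, a further peroxisomal member, was listed on the clofibrate arrays at 8.82, 9.79 and 8.29 and was empty on all vehicle arrays. Acot1 to Acot5 are close paralogs, and a probe for one can bind the RNA of another. Of the 8 thioesterases tested outside peroxisomes, 2 rose and none fell (median 0.28), and with the replicate block 3 rose and none fell.

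Promoters were searched for the direct repeat that PPAR alpha and RXR bind. The letters GGNCANAGGNCA were searched on both strands in the 250 bases before each RefSeq start (GRCm38.p6, the build of the promoter table, while no build is stated for the array design). They occurred in 1 of 129 raised genes with a promoter in the table (0.775%), in 2 of 108 lowered genes (1.85%) and in 0.904% of tested genes that were not called, against 0.81% of all 27025 genes of the table. With 1 more letter in front, AGGNCANAGGNCA was held by none of the raised genes, by 1 lowered gene and by 0.4% of all genes. The longer letters contain the shorter, so every match of AGGNCANAGGNCA is also counted for GGNCANAGGNCA. The raised gene with a match was Acot4, and both lowered genes were Apol7c, a member of the apolipoprotein L family, and Pms1, a mismatch repair gene. The promoters of Acot4 and Apol7c are shown because they hold the match among the raised genes and the match to the longer letters. The match is in capitals, it lies on the minus strand of the gene in Acot4 and on the plus strand of the gene in Apol7c, and both run 5′ to 3′ up to the base before the start.
Acot4, chr12:84038129-84038378, plus strand: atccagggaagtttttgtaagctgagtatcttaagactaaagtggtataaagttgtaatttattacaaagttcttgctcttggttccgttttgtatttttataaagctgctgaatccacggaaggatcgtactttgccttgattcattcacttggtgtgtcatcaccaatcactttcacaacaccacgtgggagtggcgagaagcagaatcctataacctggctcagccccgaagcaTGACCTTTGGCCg
Apol7c, chr15:77533316-77533565, minus strand: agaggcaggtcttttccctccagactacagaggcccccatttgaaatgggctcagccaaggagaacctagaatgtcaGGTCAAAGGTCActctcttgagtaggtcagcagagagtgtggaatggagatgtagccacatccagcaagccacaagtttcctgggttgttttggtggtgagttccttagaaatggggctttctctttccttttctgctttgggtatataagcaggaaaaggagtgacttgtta
In Acot4 the match covers bases 238 to 249 of the 250, and in Apol7c bases 78 to 89. Sites farther from the start were not searched, and for genes without a match this says only that these letters are not in this window.

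Of the peroxisomal beta-oxidation genes tested, 4 of 13 rose and none fell (median 0.26). Of these, 3 are the Acot genes given above, and the other was Ehhadh, the bifunctional enzyme that follows acyl-CoA oxidase. Ehhadh lay at the limit on the clofibrate arrays (15.49, 15.64 and 15.87) with vehicle arrays at 13.81, 14.00 and 14.32. The rise is at least 3.08-fold, and its adjusted p was 0.0548 (limma) without vehicle replicate 1. Abcd3, the main ABC transporter of peroxisomes, lay at or near the limit in both groups with its brightest probe (-0.08 ± 0.23). Its 2 other probes differed by 1.52 and 1.65, and with the brightest probe that is never at the limit it was not called (limma, adjusted p = 0.0863). Of 13 peroxins, the proteins that build peroxisomes, 1 rose, Pex16 (0.76 ± 0.21). Pex16 read 15.19, 13.79 and 14.07 on clofibrate and 13.76, 13.44 and 13.58 on vehicle, and without clofibrate replicate 1, its highest array, the adjusted p was 0.573. The call was also lost without any 1 of the vehicle arrays. With the replicate block 4 peroxins rose and 1 fell. Pex11a, which drives peroxisome division, differed by 1.47 ± 0.55 and was among those called with the block (limma, adjusted p = 0.19 without it).

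Of the 16 mitochondrial beta-oxidation genes 4 lay at the limit in both groups and were not tested. Of the 12 tested 1 rose, Decr1 (2.09-fold, 1.06 ± 0.20), which handles double bonds of unsaturated fatty acids. It read 11.13, 10.73 and 10.56 on clofibrate and 9.51, 9.82 and 9.90 on vehicle, with no overlap. With the replicate block 4 rose and none fell, adding Acadl, Hadha and Hadhb, the dehydrogenase and the trifunctional protein of long chains, at 0.65 ± 0.26, 0.56 ± 0.26 and 0.53 ± 0.24. The median over the 12 genes was 0.18.

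Among the omega-oxidation genes 1 of 11 rose, and 2 rose with the replicate block. The 1 called without the block was Cyp4a12b, which rose 3.72-fold (1.90 ± 0.41). It read 14.15, 13.14 and 13.14 on clofibrate against 11.30, 11.35 and 12.08 on vehicle, and its adjusted p was 0.062 (limma) without clofibrate replicate 1. Its near-identical paralog Cyp4a12a differed by 0.50 ± 0.45, and the probes may share RNA. Cyp4a10, the family member most used as a sign of PPAR alpha activity in rodent liver, lay within 0.05 of the limit on all clofibrate arrays and on 2 vehicle arrays with its brightest probe. It read 15.49, 15.64 and 15.87 on clofibrate and 15.67, 15.75 and 15.83 on vehicle, a difference of -0.08 ± 0.34. Its 3 other probes differed by 1.49 to 1.61, and with the brightest probe that is never at the limit Cyp4a10 rose by 1.61 (limma, adjusted p = 0.0308). Angptl4, an inhibitor of lipoprotein lipase that PPAR alpha ligands are known to raise, read 15.49, 15.64 and 15.87 on clofibrate and 15.40, 15.74 and 15.83 on vehicle with its 1 probe. Its arrays were at or near the limit in both groups, so no fold can be given for it.

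Lipid droplet genes held the largest number of raised members of the 28 lists, 7 of 16, with none lowered and a median of 0.80. With the replicate block 9 rose and 1 fell. G0s2, the inhibitor of the lipase Atgl, lay at the limit on the clofibrate arrays (15.49, 15.64 and 15.82) with vehicle arrays at 12.15, 12.73 and 12.39, a rise of at least 9.34-fold. Plin4, a coat protein, read 12.71, 13.21 and 12.03 on clofibrate and 10.18, 10.57 and 10.01 on vehicle (5.27-fold, 2.40 ± 0.51). Cidec, which lets droplets fuse, read 11.78, 11.56 and 11.04 on clofibrate and 9.26, 9.74 and 9.17 on vehicle (4.20-fold, 2.07 ± 0.24). These 3 genes had no overlap between groups and kept their calls whichever single array was left out. Hilpda, another inhibitor of Atgl, rose 3.95-fold (1.98 ± 0.25), and Fitm2, a protein of droplet budding, 3.10-fold (1.63 ± 0.23). Plin5, which ties droplets to mitochondria, rose at least 2.27-fold, with 2 of 3 clofibrate arrays at the limit, and its call was lost without any 1 of the 6 arrays (limma, adjusted p up to 0.104). Pnpla2, which encodes Atgl itself, rose 2.12-fold (1.08 ± 0.26), a call lost without clofibrate replicate 2 or vehicle replicate 1 (limma, adjusted p up to 0.181). Plin3 was the lowest of the tested members at -0.72 ± 0.27 and was the 1 lowered with the block (limma, adjusted p = 0.181 without it). Cidea, a relative of Cidec, was listed on the clofibrate arrays alone, at 6.92, 6.67 and 7.34. Its level lies in the dim range.

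**Figure D2:**
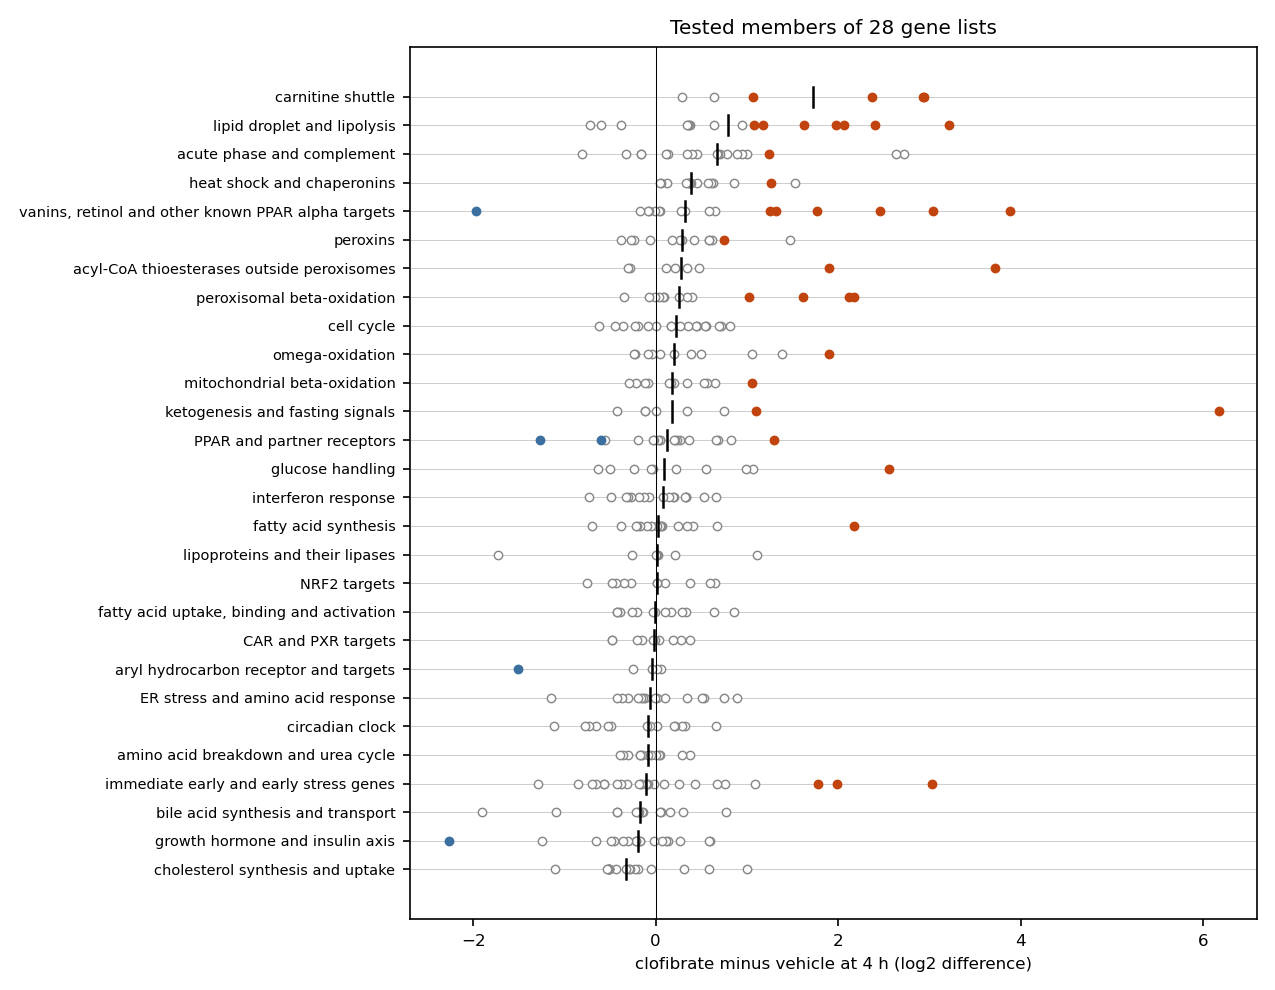
Log2 difference, clofibrate minus vehicle at 4 h, of each tested member of the 28 gene lists, ordered by the list's median (black bar). Filled circles are called genes, red where raised and blue where lowered, and open circles were not called. The carnitine shuttle has the highest median (1.72, 4 of 6 raised) and the lipid droplet list follows (0.80, 7 of 16 raised), while cholesterol synthesis and uptake has the lowest (-0.33, none called).

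Among vanins, retinol enzymes and other genes known as PPAR alpha targets, 6 of 17 rose and 1 fell (median 0.33). With the replicate block 7 rose and 1 fell. Ly6d, a surface protein better known from lymphocytes, read 12.10, 12.62 and 13.91 on clofibrate and 9.11, 8.75 and 9.13 on vehicle (14.7-fold, 3.88 ± 0.74). Clstn3, a calsyntenin, read 13.25, 13.11 and 12.85 on clofibrate and 10.32, 11.01 and 10.50 on vehicle (5.51-fold, 2.46 ± 0.26). Vnn1, the pantetheinase that recycles vitamin B5, rose 3.42-fold (1.77 ± 0.31), and the CoA carrier Slc25a42 2.50-fold (1.32 ± 0.24). These genes kept their calls without any 1 array. Retsat, which saturates retinol, rose 2.38-fold (1.25 ± 0.31), but its highest array was clofibrate replicate 1, and without it, or without vehicle replicate 1 or 3, the call was lost (limma, adjusted p up to 0.215). The lowered gene of this list was Ppp1r3c, which targets protein phosphatase 1 to glycogen.

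The called genes for proteins that target protein phosphatase 1 to glycogen were 3, a grouping made after their values were seen. Over all tested genes 2.62% were called and 13.2% had groups that did not overlap. Only called members are given here, so their number and directions say nothing about the family as a whole. Ppp1r3c read 8.36, 8.05 and 8.68 on clofibrate and 11.05, 9.76 and 10.19 on vehicle (3.92-fold lower, -1.97 ± 0.47). Its relative Ppp1r3g read 11.47, 12.05 and 12.14 on clofibrate and 8.61, 9.95 and 9.67 on vehicle (5.56-fold higher, 2.47 ± 0.55). Ppp1r3b, the form best known from liver, read 9.43, 9.04 and 9.49 on clofibrate and 10.61, 10.44 and 10.97 on vehicle (2.55-fold lower, -1.35 ± 0.35). None of the 3 had overlapping groups, and 2 were lower and 1 higher on clofibrate. The call of Ppp1r3b was lost with values as deposited and without any 1 array other than clofibrate replicate 3 or vehicle replicate 2 (limma, adjusted p up to 0.11). The calls of Ppp1r3c and Ppp1r3g depended on vehicle replicate 1, without which the adjusted p was 0.146 for Ppp1r3c and 0.0946 for Ppp1r3g (limma), and that of Ppp1r3c was also lost without clofibrate replicate 2.

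Of the other 15 highest genes, Rab30, a small GTPase of the Golgi, read 13.67, 14.01 and 13.15 on clofibrate and 10.43, 11.33 and 10.83 on vehicle (6.71-fold). Enc1, an actin-binding adaptor first known from neurons, read 12.08, 12.48 and 12.60 on clofibrate and 9.74, 9.55 and 9.96 on vehicle (6.24-fold). Synj2, a phosphoinositide phosphatase, read 10.47, 11.32 and 11.35 on clofibrate and 8.27, 8.99 and 8.34 on vehicle (5.72-fold). All 3 were separated by more than 1 log2 unit between the nearest arrays of both groups. Elovl3, an elongase, was the 1 of 16 fatty acid synthesis genes that rose (4.51-fold, 2.17 ± 0.52). Its arrays were scattered, at 10.11, 11.74 and 11.92 on clofibrate and 9.13, 10.04 and 8.08 on vehicle. The call was lost without any 1 of clofibrate replicates 2 and 3 and vehicle replicates 1 and 3 (limma, adjusted p up to 0.124).

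Among 25 immediate early and early stress genes 3 rose and none fell, with a median of -0.10, and with the replicate block 3 rose and 1 fell. Gadd45b, a stress sensor of growth arrest and DNA demethylation, read 12.35, 13.08 and 11.76 on clofibrate and 8.86, 9.98 and 9.26 on vehicle (8.16-fold, 3.03 ± 0.49). Jun, a subunit of AP-1, read 11.10, 11.15 and 10.70 on clofibrate and 9.25, 8.97 and 9.39 on vehicle (3.44-fold, 1.78 ± 0.28). Both kept their calls without any 1 array. Cdkn1a, the cell cycle inhibitor p21, rose 3.97-fold (1.99 ± 0.56), a call lost without any 1 of the 6 arrays (limma, adjusted p up to 0.161). Egr1, an early growth factor response gene, differed by -1.29 ± 0.75 and was not called. Among 15 heat shock genes and chaperonins 1 rose, Hspa1a (2.40-fold, 1.26 ± 0.28), an inducible Hsp70. The call was lost without clofibrate replicate 2 or vehicle replicate 3 (limma, adjusted p up to 0.0943), and its near-identical copy Hspa1b differed by 1.53 ± 0.48. With the replicate block 4 of this list rose, and the median was 0.39.

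The receptor list had members in both directions, with 1 of 18 raised and 2 lowered (median 0.12), but with values as deposited 2 were raised and none lowered (median 0.30). With the replicate block 2 were raised and 2 lowered. Ppargc1a, the coactivator PGC-1 alpha, read 9.20, 9.27 and 9.35 on clofibrate and 10.84, 10.50 and 10.30 on vehicle (2.42-fold lower, -1.27 ± 0.33), with no overlap. Its call was lost without any 1 of clofibrate replicates 1 and 2 and vehicle replicates 1 and 2 (limma, adjusted p up to 0.17). Pparg read 10.27, 10.67 and 11.08 on clofibrate and 11.34, 11.14 and 11.34 on vehicle (1.52-fold lower, -0.60 ± 0.17), a call lost without any 1 array other than clofibrate replicate 3 (limma, adjusted p up to 0.381). Nr1i2, the xenobiotic receptor PXR, read 14.37, 12.86 and 13.26 on clofibrate and 12.12, 12.09 and 12.37 on vehicle (2.47-fold higher, 1.30 ± 0.36). Its highest array was clofibrate replicate 1, and without it the adjusted p was 0.352 (limma), while leaving out any 1 vehicle array also ended the call. Ppara itself differed by 0.68 ± 0.56 and was not called. None of 10 tested CAR and PXR target genes was called, and 5 others lay at the limit in both groups and were not tested.

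The lowest difference among the called genes was that of Socs2, a feedback inhibitor of growth hormone signalling. It read 11.28, 12.12 and 10.98 on clofibrate and 12.43, 13.83 and 14.93 on vehicle, 4.83-fold lower (-2.27 ± 0.60). The vehicle arrays spread over more than 2 log2 units, the groups did not overlap, and the call was lost without any 1 of clofibrate replicates 1 and 3 and vehicle replicates 2 and 3 (limma, adjusted p up to 0.212). It was the 1 lowered member of 18 genes of the growth hormone and insulin axis, none of which rose (median -0.19). Cish, a second gene of growth hormone feedback, differed by -1.25 ± 0.76 and was not called.

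Sucnr1, the succinate receptor, read 10.69, 10.57 and 10.75 on clofibrate and 12.56, 12.54 and 12.36 on vehicle (3.52-fold lower, -1.81 ± 0.37). Ahr, the receptor for dioxin-like ligands, read 10.67, 10.11 and 10.31 on clofibrate and 11.95, 11.83 and 11.84 on vehicle (2.86-fold lower, -1.51 ± 0.21, limma, adjusted p = 3.83e-06). Of the 4 other tested genes of the aryl hydrocarbon receptor list none was called, and the list's median was -0.04. Clec2h, a C-type lectin of the NK receptor ligand family, read 8.18, 7.66 and 8.49 on clofibrate and 9.99, 9.76 and 9.78 on vehicle (3.32-fold lower). Tnfrsf19, a receptor of the TNF family, read 9.08, 8.35 and 8.57 on clofibrate and 10.01, 10.15 and 10.11 on vehicle (2.69-fold lower). All 4 genes kept their calls without any 1 array, as did the transcripts without a gene name 4930581F22Rik (-1.59 ± 0.27) and D930048N14Rik (-1.55 ± 0.30). Without number 1 in both groups D930048N14Rik stood at -0.96 (limma, adjusted p = 0.315), and Sucnr1 and Clec2h also lost their calls then and without number 2, as Tnfrsf19 did without number 2 (limma, adjusted p up to 0.104). In the fit of the 6 arrays alone D930048N14Rik and Tnfrsf19 were not called.

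The rest of the 15 lowest genes had calls that depended on single arrays. Hhex, a homeobox factor of liver development, read 12.98, 13.16 and 12.50 on clofibrate and 14.40, 14.19 and 14.17 on vehicle (2.60-fold lower). Its call was lost without clofibrate replicate 3, vehicle replicate 1 or vehicle replicate 2 (limma, adjusted p up to 0.0988). Rspo1, a secreted enhancer of Wnt signalling, read 8.53, 7.06 and 7.64 on clofibrate and 9.08, 9.52 and 8.88 on vehicle (2.67-fold lower), and lost its call without clofibrate replicate 2 or vehicle replicates 1 or 2 (limma, adjusted p up to 0.123). Ankrd37, Serpina9, the cyclic AMP phosphodiesterase Pde4b, the apoptosis gene Bmf and the transcription factor Snai2 differed by -1.35 to -1.47, and each lost its call without at least 3 of the single arrays (limma, adjusted p up to 0.325).

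**Figure D3:**
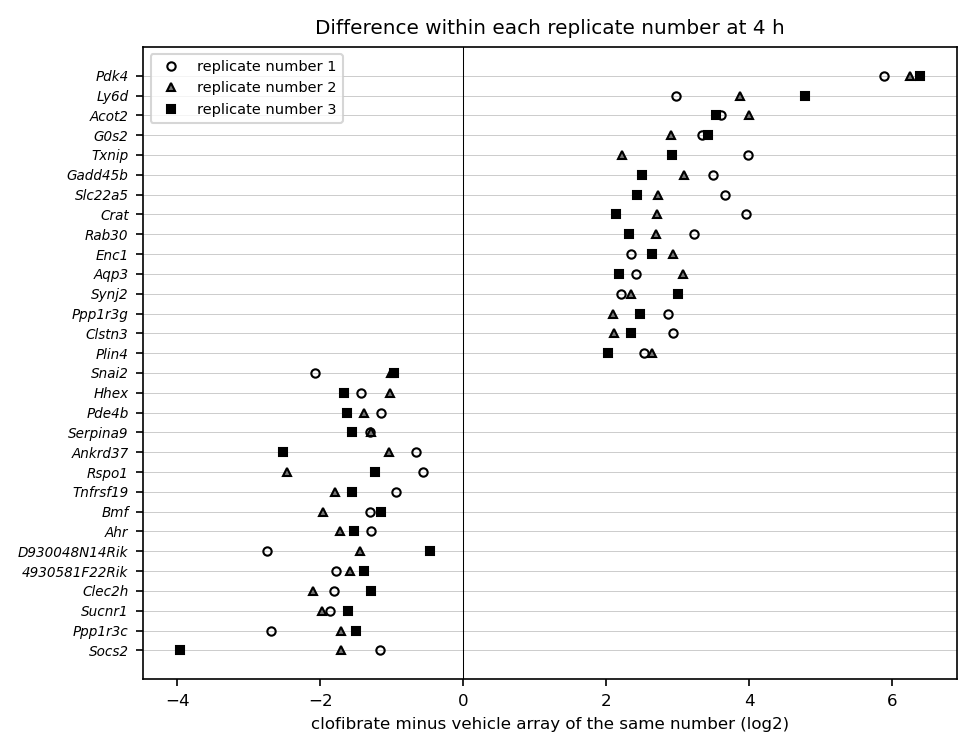
Difference between the clofibrate and the vehicle array of the same replicate number (x axis, log2) for the 15 highest and 15 lowest called genes. Open circles are number 1, grey triangles number 2 and black squares number 3. The genes were chosen for groups that do not overlap, which puts all 3 differences on 1 side of 0, and in Socs2 number 3 lies far from the others.

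In 11 of the 28 lists no member was called in either direction, and with the replicate block 3 of these lists, cholesterol synthesis and uptake, the circadian clock and the lipoproteins, had 1 raised member each. Fatty acid uptake, binding and activation had 13 tested members with a median of 0.00, cholesterol synthesis and uptake 17 with a median of -0.33, bile acid synthesis and transport 14 with a median of -0.17, and amino acid breakdown and the urea cycle 13 with a median of -0.09. The others were the circadian clock (14 tested), CAR and PXR targets (10), NRF2 targets (11), ER stress and the amino acid response (16), the interferon response (17), the cell cycle (18) and the lipoproteins with their lipases (7). Members at the limit in both groups could not be called. They were 7 of the lipoprotein list, 5 CAR and PXR targets, 4 of amino acid breakdown and up to 3 in each other list. Cyp7a1, the rate-limiting enzyme of bile acid synthesis, read 13.24, 12.29 and 11.32 on clofibrate and 14.05, 14.54 and 13.95 on vehicle. The groups did not overlap, yet the difference of -1.90 ± 0.78 was not called (limma, adjusted p = 0.252), and its second probe differed by -0.84. Mttp, which loads lipid onto apolipoprotein B, differed by 1.11 ± 0.34 and was called with the replicate block (limma, adjusted p = 0.0716 without it).

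The acute phase list had 1 called member of 19, the complement factor C6, and a median of 0.67. C6 read 11.68, 8.84 and 9.73 on clofibrate and 8.81, 8.81 and 8.90 on vehicle (1.24 ± 0.33), so its rise was carried by clofibrate replicate 1, without which the difference was 0.45 (limma, adjusted p = 0.562). The call was also lost without any 1 of the vehicle arrays. Saa3, an acute phase protein, went the other way across the same arrays, with 10.80, 15.13 and 15.98 on clofibrate and 11.40, 11.18 and 11.18 on vehicle (2.72 ± 1.30, not called). Its value on clofibrate replicate 3 lay near the scanner limit, so this difference may be compressed. Lcn2, also of the acute phase, read 9.42, 11.39 and 12.33 on clofibrate and 8.25, 8.35 and 8.62 on vehicle (2.64 ± 1.48, not called). Clofibrate replicate 1 thus lay with or near the vehicle arrays for Saa3 and Lcn2 and apart from all other arrays for C6.

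Markers of cell types were called in neither direction, with 0 of 45 tested members of 11 lists (hepatocytes and other cells) called by limma beside 2.62% over all genes. At an unadjusted p under 0.05 of limma the count was 2 of the 45, and 1391 of the 11077 over all genes. With so few markers, 0 calls do not show that the mix of cells was unchanged. All 9 Kupffer cell and macrophage markers lay above 0 (median 0.38), as did the 3 neutrophil markers (median 0.50). The 8 stellate cell markers had a median of -0.43. Medians of the other 8 marker lists ran from -0.325 to 0.06. The log2 of the summed levels of 9 Kupffer cell and macrophage markers was 17.02, 16.04 and 16.41 on the clofibrate arrays and 15.88, 16.21 and 16.03 on the vehicle arrays. That of 3 neutrophil markers was 10.38, 10.91 and 11.96 on clofibrate and 10.52, 10.40 and 10.05 on vehicle, highest on the array that also had the most Saa3. The neutrophil genes S100a8 and Retnlg were listed on the clofibrate arrays alone, and the lymphocyte genes Nkg7, Cd79a and Cd3g on the vehicle arrays alone, all at dim levels of 6.49 to 7.96. That of 8 stellate cell markers was 15.99, 14.15 and 14.83 on clofibrate and 15.72, 15.15 and 15.46 on vehicle, and 1 of these markers was lowered with the block. The part of these cells in the results above was not tested.

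An empty cell in the table is not a measurement of 0. On all 3 clofibrate arrays and no vehicle array 427 genes were listed, and on all 3 vehicle arrays and no clofibrate array 983. Each clofibrate array listed fewer probes in all (19558 to 19582) than each vehicle array (20779 to 20797). The larger number on the vehicle side therefore cannot be read as more genes turned off by clofibrate. The genes listed on 1 side only were dim. Their median level was 7.16 and 7.37, against 9.93 and 9.72 over all genes listed on the clofibrate and vehicle arrays. Of the 427 genes, 129 were listed on the vehicle arrays at 8 h and 142 on those of the Wy-14643 arm at 4 h. The brightest, Rbbp7, a histone-binding protein, averaged 13.09 on the clofibrate arrays and was listed in all 34 other groups of the series, the 17 vehicle groups included, so its empty vehicle cells at 4 h cannot be read as loss of the RNA. Acot5 was listed in 12 of the 17 other treated groups and in 1 of the 17 other vehicle groups, Rsad1 in 11 and 1. Among the genes of the vehicle arrays alone the brightest were Hsd3b5, a steroid dehydrogenase of liver (10.36, 10.59 and 8.86), and Lgr5, the receptor of R-spondins (10.19, 9.49 and 9.34). Lgr5 was listed in all 17 other vehicle groups and in 16 of 17 other treated groups. The other bright genes of one group alone were Ercc6l2, Tgif1 and Mtus2 on clofibrate, and Tgm5, Tmem267, Igfbp5 and Pitx3 on vehicle.

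The genes called at 4 h were followed to the neighbouring hours, whose clofibrate and vehicle arrays are different ones. At 2 h 28 of 9863 genes rose (0.284%) and 2 fell (0.0203%), and at 8 h 588 of 9506 rose (6.19%) and 487 fell (5.12%). The clofibrate arrays at 8 h listed 15750 to 15771 probes and their vehicle arrays 19718 to 19729. Only genes listed in both groups were tested. Of 148 genes raised at 4 h and tested at 2 h, 28 had risen by 2 h, which is 18.9% of the list at 4 h and 100% of that at 2 h. Of these 148 genes 147 lay above 0 at 2 h, with a median difference of 0.60 at 2 h and 1.15 at 4 h. Over all genes tested at both hours the median at 2 h was -0.02. Of 149 raised genes tested at 8 h, 115 were raised at 8 h (77.2% of the list at 4 h and 20.1% of that at 8 h). Of 123 lowered genes tested at 2 h, 1 was lowered then (0.813% of the list at 4 h, 50% of that at 2 h), and of 104 tested at 8 h, 47 were (45.2% and 9.73%). Below 0 lay 121 of the 123 at 2 h and 90 of the 104 at 8 h. Of the 149 raised genes 146 lay above 0 at 8 h, where the median over all genes tested at both hours was 0.03.

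Slc22a5 differed by 1.90 at 2 h, 2.94 at 4 h and 2.49 at 8 h, and Acot2 by 2.98, 3.72 and 4.78 in the same order of hours, and for neither gene was the difference between hours called. Pdk4 was above vehicle at each of these hours, but its value at 4 h is a lower bound, so its hours cannot be ordered. The difference between 4 h and 2 h was called for 1 of 9701 genes (0.0103%), Clstn3, which differed by 0.49 ± 0.26 at 2 h (not called) and 2.46 ± 0.26 at 4 h. Its effect at 4 h minus that at 2 h was 1.98 ± 0.37 (95% interval 1.23 to 2.72, limma, adjusted p = 0.0355). The difference between 4 h and 8 h was called for 1 of 9207 genes (0.0109%), Tppp, a tubulin polymerization promoting protein. Tppp read 7.90, 7.82 and 7.85 on clofibrate and 9.10, 8.69 and 8.66 on vehicle at 4 h (-0.97 ± 0.16), and stood at 0.49 at 8 h, a difference of -1.46 ± 0.23 (limma, adjusted p = 0.00185). With the replicate block the number for 4 h against 8 h was 495 (5.38%), 187 with a higher effect at 4 h (2.03%) and 308 with a lower one (3.35%). The split depends on the scaling, since with values as deposited and no block 499 were higher at 4 h and 3 lower, with the median of all genes at 0.32 in place of -0.06. Among the genes called with the block were Txnip (3.04 at 4 h, 1.46 at 8 h, difference 1.58, adjusted p of limma with the block 0.0222), Enc1 (2.64 and 1.58, 0.0487) and Synj2 (2.52 and 1.67, 0.0398), higher at 4 h, and Cidec (2.07 and 3.58, 0.00446), lower at 4 h. Hhex stood at -1.38 at 4 h and -0.02 at 8 h (adjusted p of limma with the block 0.0163).

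**Figure D4:**
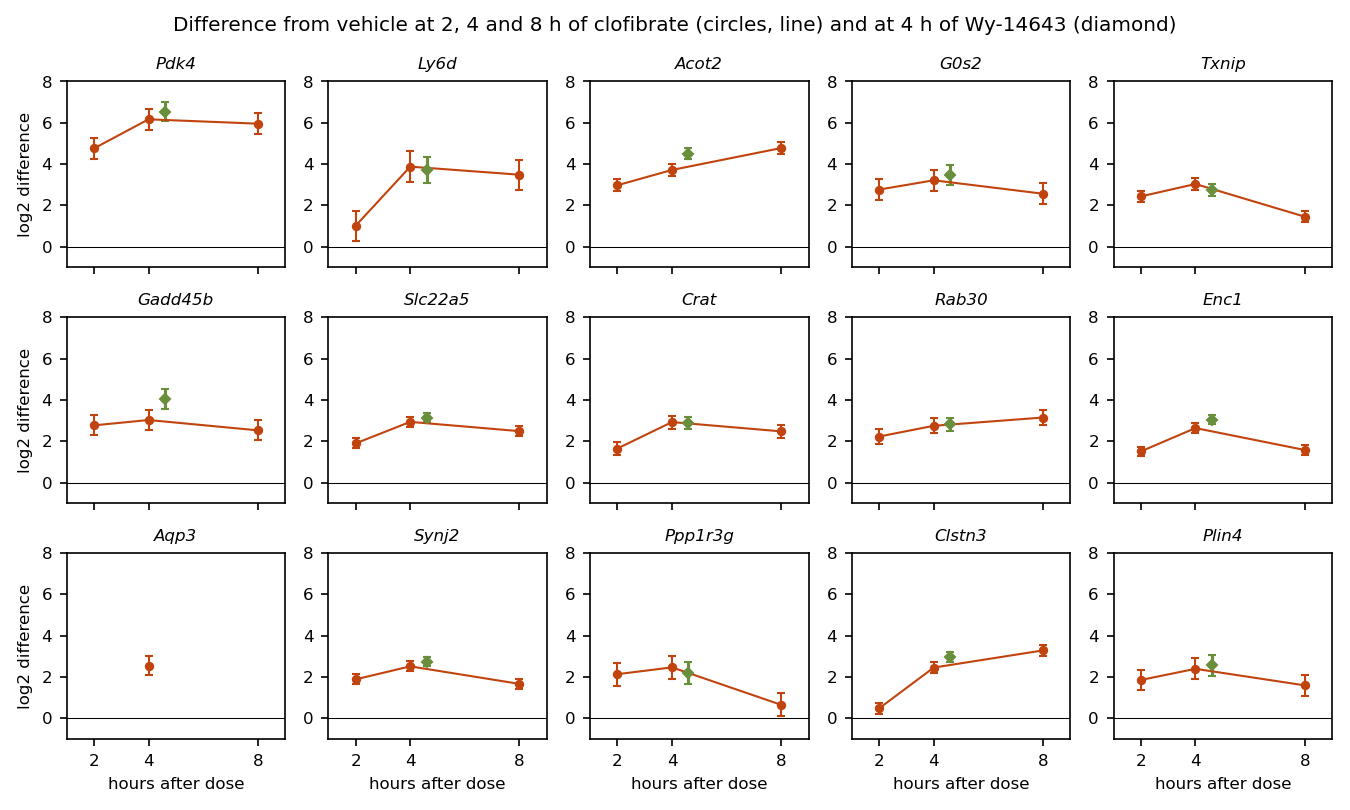
Log2 difference from the time-matched vehicle (y axis, bars ± SE) at 2, 4 and 8 h of clofibrate (red circles) and at 4 h of Wy-14643 (green diamonds, drawn beside 4 h) for the 15 highest genes at 4 h. Clstn3 stands at 0.49 at 2 h and 2.46 at 4 h, Txnip at 3.04 at 4 h and 1.46 at 8 h, and Aqp3 was measured in both groups at 4 h of clofibrate alone. Pdk4 and G0s2 lay at the scanner limit on the clofibrate arrays at 4 h, so their points there are lower bounds.

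Wy-14643 is a more potent PPAR alpha ligand of another structure than the fibrate ester clofibrate, and was given at the same dose and hour. With Wy-14643 338 of 11241 genes rose (3.01%) and 499 fell (4.44%), 7.45% in all, set against the vehicle of its own arm. The 2 comparisons share no array. Of 158 genes raised by clofibrate and tested in both, 138 rose with Wy-14643 (87.3% of the clofibrate list and 41.8% of the Wy-14643 list), and 157 lay above 0. Of 129 lowered genes, 94 fell with Wy-14643 (72.9% and 20%), and 127 lay below 0. The median difference of the raised genes was 1.15 with clofibrate and 1.15 with Wy-14643, and that of the lowered genes -0.89 and -0.82. Over all genes tested in both, the median with Wy-14643 was -0.08.

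Of 10562 genes tested for the difference between the 2 compounds, 1 pair compared, none was called at 0.05 (limma), 256 had an unadjusted p under 0.05, and 3 were called with the replicate block (0.0284%), 2 higher with clofibrate (0.0189%) and 1 lower (0.00947%). A missed threshold does not show that the compounds act alike. The intervals given here come from the fit without the replicate block, which does not use the pairing of arrays by number. The 95% interval of the difference reached a median of 0.60 log2 units (1.51-fold) to either side, and it lay within 1 log2 unit of 0 for 73.9% of the genes and for 181 of the 287 genes called for clofibrate. Pdk4 differed between clofibrate and Wy-14643 by -0.37 (95% interval -1.68 to 0.94), with both compounds at the limit, and Crat by 0.06 (-0.74 to 0.86). Hilpda rose by 1.98 with clofibrate and 3.38 with Wy-14643, a difference of -1.40 (-2.17 to -0.63). Acot2 rose by 3.72 and 4.51, a difference of -0.79 (-1.49 to -0.09). Cyp7a1 fell by 5.44 with Wy-14643 (limma, adjusted p = 6.51e-08) and stood at -1.90 with clofibrate, a difference of 3.53 (1.44 to 5.63). Sucnr1 stood at -1.81 with clofibrate and -0.73 with Wy-14643, a difference of -1.09 (-2.11 to -0.06). None of these intervals that leave out 0 was called after adjustment over all genes (limma, adjusted p = 1 for each). The 3 genes called with the block were Plekhg6 (0.06 with clofibrate, -1.38 with Wy-14643), Gpsm2 (-0.16 and -0.92) and Efna5 (-0.26 and 0.63), none of them called for clofibrate alone.

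**Figure D5:**
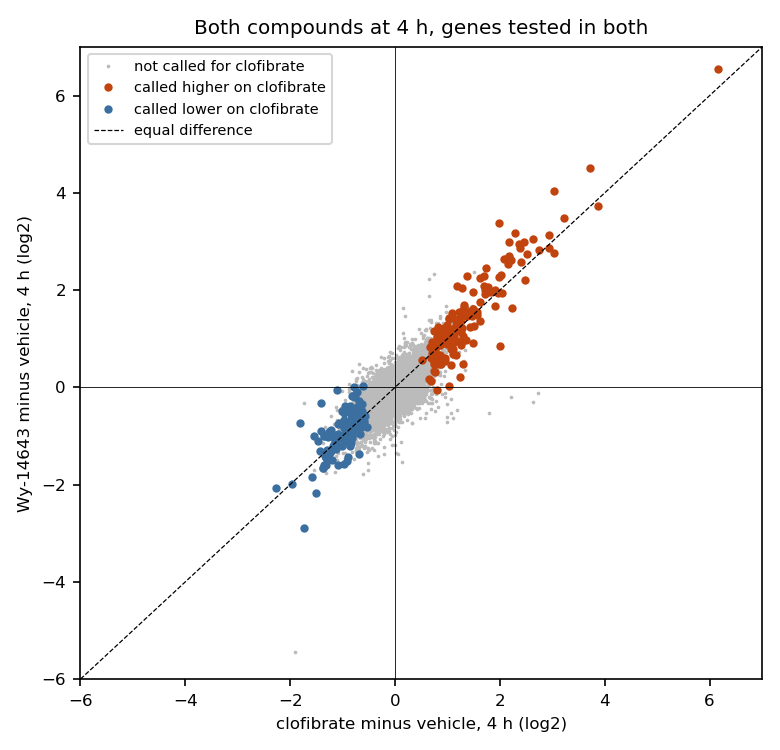
Log2 difference from vehicle at 4 h with clofibrate (x axis) and with Wy-14643 (y axis) for the 10562 genes tested in both. Red and blue points were called higher or lower on clofibrate, grey points were not called, and the dashed line marks equal differences. Pdk4 stands at 6.17 and 6.54, and the grey point far below the line is Cyp7a1 at -1.90 and -5.44.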

How the data were processed

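The authors deposited log2 values of fluorescence, 1 column per array, from single-colour Cy3 Agilent arrays per the labels. Image reading, background handling and normalization are not given in the sources used here, so scale and centring between groups are unknown. Of 41096 probes that are not controls, 32609 have 1 gene symbol, 44 several and 8443 none in the platform annotation, and those without exactly 1 were left out. Empty cells (51.5% of values) fall on all or none of the 3 arrays of a group for 99.935% of probes and were not imputed.

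Each array was shifted to a common 75th percentile, taken over the 12210 probes that every one of the 108 arrays lists. The brightest probe stood for a gene. All 54 arrays of the clofibrate arm entered 1 limma fit (a mean for each group, variance trend on), which lends the spread of the other groups to the 6 arrays at 4 h, and p-values were adjusted by Benjamini-Hochberg. The compounds were compared in a fit of all arrays. A gene was tested where all arrays compared listed it, and not where both group means reached 15.99. One vehicle array at 14 days nearly equals one at 4 days (r = 0.999981), and leaving it out was an alternative.

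The labels number the replicates 1 to 3 in each group, and whether numbers pair animals is not stated. Residuals of clofibrate and vehicle arrays of the same number correlated at 0.565, 0.655 and 0.656, all over 0.1, so the numbers were taken as pairing the arrays. The block is printed beside the counts of genes and list members called at 4 h where it changes them. That pairing comes from the data.

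Named genes are the 15 highest and 15 lowest called genes without overlap, members of the lists, the 6 brightest genes listed in 1 group only, and the called genes of each difference. The members and lists were chosen with earlier results of these data known. In simulated data with 11077 genes, 69 of 100 genes changed 2-fold and 98 of 100 changed 4-fold were found, with 10 false calls. The noise was independent between arrays there, with the same spread per gene in every group. In the data the median SD at 4 h was 0.341 on clofibrate and 0.239 on vehicle. The simulated rates therefore do not carry over directly to the comparison at 4 h. Promoters come from RefSeq (GRCm38.p6). Alternatives changed the scaling, the choice of probe, the arrays that share the spread, the filter on dim genes, the block and the replicates. Tools were Python 3.11.15 with matplotlib 3.10.9, and R 4.3.3 with limma 3.58.1 and data.table (version 1.17.8).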

Additional observations from a re-analysis of the deposited data

Results flagged for a closer look

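Clstn3 was singled out because its clofibrate effect differed between hours by a test of the difference itself, with 2.46 ± 0.26 at 4 h and 0.49 ± 0.26 at 2 h, a difference of 1.98 (limma, adjusted p = 0.0355, and 0.0159 with the replicate block). Its clofibrate arrays at 4 h (13.25, 13.11 and 12.85) all lay above the vehicle arrays (10.32, 11.01 and 10.50). The rise at 4 h kept its call whichever single array was left out, but the difference between hours lost its call in most of those repeats.

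Tppp was singled out because its effect turned between hours, with -0.97 ± 0.16 at 4 h (limma, adjusted p = 1.96e-04) and 0.49 at 8 h (limma, adjusted p = 0.0428), a difference of -1.46 (limma, adjusted p = 0.00185). All 3 clofibrate arrays lay below the vehicle arrays at 4 h. Both groups at 4 h lay below the median level of all listed genes (9.93 on clofibrate, 9.72 on vehicle). At 8 h the clofibrate arrays listed fewer probes than their vehicle arrays. The direction of small differences, such as that at 8 h, depends on the scaling.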

How the results depend on the processing

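The 290 calls at 4 h stayed within 1.5 times of that count with values as deposited (357), quantile normalization (267), the mean of a gene's probes (319), the brightest probe that is never at the limit (275), without the copied array (288), without the dimmest genes (256) and without number 3 in both groups (208). They moved to 985 with the replicate block, 538 with scaling over all listed probes, 52 in a fit of the 6 arrays alone (45 raised, 7 lowered), 1552 with the block and values as deposited, 110 with the block on 6 arrays, 71 without number 1 and 124 without number 2 in both groups. The last 4 of these, and the repeat without number 3, were chosen after seeing the data. Leaving out 1 array gave 125 (vehicle replicate 1) to 378 (clofibrate replicate 3), with 167 without clofibrate replicate 1 and 172 without vehicle replicate 2.

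The share of raised genes was 55.2%, and 89.1% as deposited, 21.4% with scaling over all listed probes, 86.5% on 6 arrays and 78.9% without number 1. The direction of small differences therefore depends on the scaling.

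For 4 h minus 2 h the count was 1, and 2 as deposited, 1 with the block and 0 to 1 without single arrays. For 4 h minus 8 h it was 1, and 502 as deposited (499 higher at 4 h, 3 lower), 495 with the block (187 and 308) and 1 to 86 without single arrays, with 86 without clofibrate 8 h replicate 1, 66 without clofibrate 4 h replicate 2 and 3 without clofibrate 4 h replicate 1. For the difference between compounds it was 0, and 3 with the block and 0 to 5 without single arrays, the 5 without clofibrate 4 h replicate 2. The lists held 41 called members, 65 with the block and 48 as deposited. Genes listed in 1 group alone numbered 1410, and 1417 when 2 arrays sufficed.

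Cyp4a10 (-0.08) changed sign to 0.089 as deposited and with the block as deposited, 0.11 with quantile normalization, 1.14 with the mean of probes, 1.61 with its never-saturated probe, and ran from -0.185 to 0.00369 without single arrays. Abcd3 (-0.08) changed to 0.0957 as deposited and with the block as deposited, 0.12 with quantile normalization, 1.03 with the mean of probes, 1.65 with its never-saturated probe, and ran from -0.179 to 0.0104 without single arrays. Of the called genes named in the text none changed direction in its clofibrate effect at 4 h under these alternatives, where the alternative gave a value. The limit near log2 16 bounds the folds of bright genes, and 3 arrays per group bound the rest. The causes of these shifts were not tested. Probes at the limit hold no room for a difference.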

Other observations

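Genes of Wnt signalling and of the hepatocytes around the central vein were looked at after Lgr5, Tnfrsf19 and Rspo1 had been seen among the genes above, so the 19 genes were chosen with values known and no test was made of them as a group. Of the 15 tested, 3 fell, none rose and 13 lay below 0, with a median of -0.35, and with the replicate block 5 fell and 1 rose, Cldn2 (0.68). Over all tested genes 1.17% fell, 4.6% with the block, and the median was -0.04. The genes that fell include Tnfrsf19 and Rspo1, which prompted the list. The counts are therefore no independent sign of a shared decrease. Rnf43, a ligase that removes Wnt receptors, read 11.89, 12.33 and 11.98 on clofibrate and 12.84, 13.52 and 12.56 on vehicle (-0.91 ± 0.26, limma, adjusted p = 0.0489), and its call was lost without some single arrays, with an adjusted p of up to 0.369 (limma) without vehicle replicate 2. Axin2, a feedback inhibitor of Wnt signalling, read 7.57, 8.99 and 8.58 on clofibrate and 9.03, 9.85 and 9.37 on vehicle, and Nkd1, another one, 9.78, 9.93 and 9.58 on clofibrate and 10.63, 11.26 and 10.33 on vehicle. Both were called with the block and not without it (limma, adjusted p = 0.0958 for Axin2 and 0.0646 for Nkd1). The enzymes of the same hepatocytes did not stand in the same place: Glul differed by -0.20 ± 0.37 and Cyp1a2 by -0.04 ± 0.60, neither called, and Cyp2e1 and Oat lay at the limit in both groups. With Wy-14643 at 4 h Lgr5 differed by -1.64 (limma, adjusted p = 6.2e-07), Tnfrsf19 by -1.31 and Rnf43 by -0.97, while Rspo1 (-0.32), Axin2 (-0.42) and Nkd1 (-0.34) were not called (limma, adjusted p = 0.767, 0.538 and 0.617).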
